A study of Sus scrofa with 18 samples.

Results

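The endometrium of pregnant Yorkshire gilts was set against that of Meishan gilts on gestational day (GD) 50, with 6 of the 18 arrays of the series: 3 Yorkshire GD50 arrays and 3 Meishan GD50 arrays, chosen by their breed and day labels. Meishan is a prolific Chinese breed and Yorkshire a less prolific Western breed, and the gilts were of similar age and weight, with no treatment named, and were mated to boars of their own breed. The other 12 arrays held 3 Yorkshire and 3 Meishan arrays each of GD15 and GD26 and are used only to place the GD50 difference in time. Each array measured RNA of 1 conceptus attachment site, mixed from 2 gilts, and the same 2 gilts gave all 3 arrays of their breed and day, so that the p-values measure the spread between sites and breed cannot be told apart from the individual animals. Values are log2 intensities of the Affymetrix porcine array after GCRMA, and 8533 of 23999 non-control probe sets, which include 4064 genes with a symbol, were tested because their intensity exceeded 100 in 3 or more of these arrays.

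The pig placenta lies on the uterine epithelium without invading it, and the endometrium feeds the conceptus through secreted proteins, blood vessels and transporters. By GD50 the attachment is complete and the placenta is growing in folds. Interferons from the pig conceptus act on the uterus around implantation and switch on a set of antiviral genes through STAT and IRF transcription factors, mostly in the stroma. Insulin-like growth factors, metalloproteinases and their inhibitors, TGF-beta and BMP ligands and prostaglandins are other signals by which the endometrium is known to be remodelled.

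The label of the tissue was checked against marker genes. All 13 epithelial markers on the array were tested, and none was called different between the breeds both as deposited and after subtraction of each array's median. As deposited alone 2 of them were called lower in Yorkshire, and after that subtraction 1, MSX1, was called higher. Of 8 stromal markers on the array 6 were tested, with 1 called higher, the collagen chain COL1A2 described below, and none lower; the stromal THY1, a surface glycoprotein of fibroblasts, read 14.85, 14.53 and 14.60 in Yorkshire arrays, against 14.40, 14.55 and 14.55 in Meishan arrays. Of 5 tested smooth muscle markers TAGLN, an actin-binding protein, was called higher (1.94) and the actin ACTG2 lower (-1.03). Of all genes 5.14% were called higher and 7.87% lower. Placental transcripts were also high. PAG6, a pregnancy-associated glycoprotein made by trophoblast, read 14.15, 13.61 and 14.45 in Yorkshire arrays, against 14.88, 14.88 and 14.79 in Meishan arrays, while all 6 arrays of GD15 lay between 2.59 and 2.67. The 16 trophoblast markers on the array, 11 of them tested, summed to intensities of 56082 to 81789 in Yorkshire arrays and 74635 to 92937 in Meishan arrays. IFNG, CGA, CYP19A1 and TFAP2C were under 100 on all 6 arrays. The part of placental transcripts in the breed differences was not tested, and in such bulk tissue fewer cells of a type and less RNA per cell cannot be told apart.

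The Yorkshire GD50 arrays stood apart in their controls. The bacterial hybridization controls averaged 13.18 ± 0.45 in Yorkshire GD50 arrays and 11.33 ± 0.09 in Meishan GD50 arrays (SD, n = 3 each). The 3′ probe set of the actin control exceeded the 5′ one by 2.77 ± 0.14 in Yorkshire and by 4.93 ± 0.30 in Meishan arrays, and the Yorkshire GD26 arrays, at 2.38 to 2.63, were like those of GD50, while the other 12 arrays of the series, Meishan GD50 included, lay between 3.54 and 5.23 (the plot of control values by breed and day). The medians of the tested probe sets were 8.24, 7.99 and 8.12 in Yorkshire arrays, against 8.52, 8.50 and 8.51 in Meishan arrays, and 7131 to 7728 probe sets passed an intensity of 100 in Yorkshire arrays, against 8398 to 8423 in Meishan arrays. Every probe set is therefore reported after the median of each array was subtracted (centred) and as deposited, which makes each Yorkshire minus Meishan difference 0.39 lower on the log2 scale. Since all 3 Yorkshire GD50 arrays share these values, breed and array features cannot be told apart at GD50, and no comparison without these arrays can be made.

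**Figure D1:**
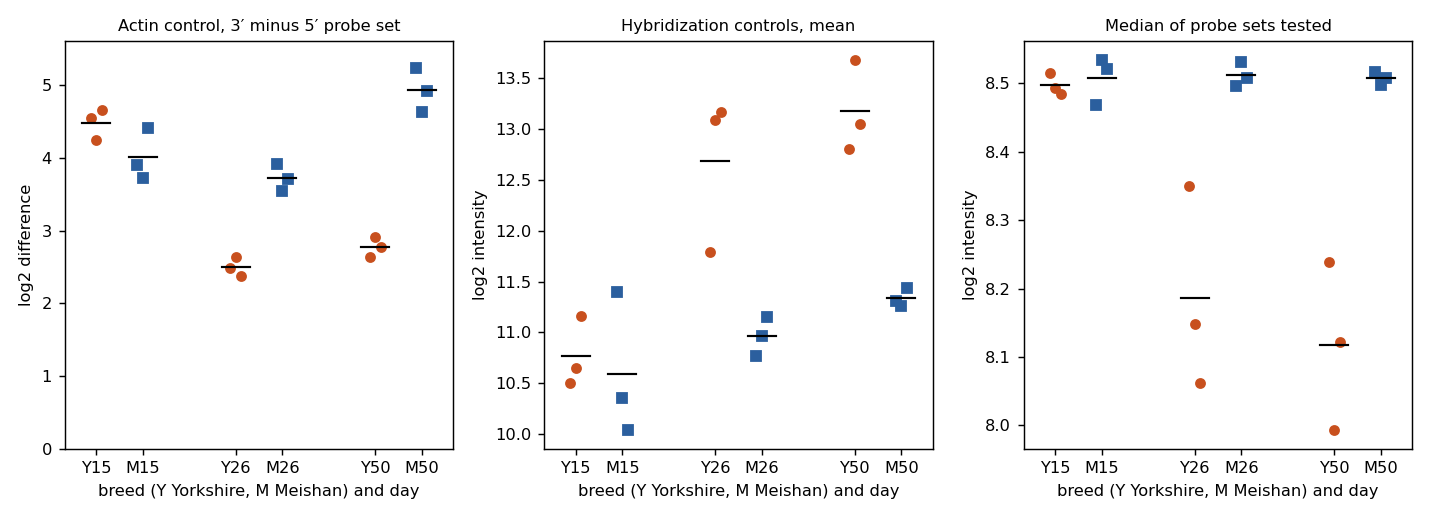
Control values of the 18 arrays by breed and gestational day, with 1 point for each array and the group mean as a line: the 3′ minus 5′ difference of the actin control, the mean of the hybridization controls and the median of the tested probe sets, all on the log2 scale (the axes of the last 2 panels do not start at 0). The Yorkshire arrays of GD26 and GD50 have actin differences of 2.38 to 2.91, below all the others.

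A probe set was called where limma gave a Benjamini-Hochberg adjusted p under 0.05 over the 8533 probe sets and a difference of at least 2-fold, in the same direction on both scales. By this rule 606 probe sets were higher in Yorkshire (7.10% of those tested) and 896 were lower (10.5%). All Meishan arrays were under 100 for 250 of the higher and all Yorkshire arrays for 453 of the lower ones, and with values under 100 set to 100 the counts were 482 higher and 411 lower. With cyclic loess in place of centring they were 606 higher and 536 lower, where the deposited values set the higher count. Loess alone gave 1008 higher and 536 lower. Centring alone gave 918 higher (10.8%) and 896 lower (10.5%), while the deposited values gave 606 higher (7.10%) and 1837 lower (21.5%), so that the share of lower calls was 49.4% after centring and 75.2% as deposited. Of the 1502 called probe sets, 1495 had Yorkshire and Meishan arrays that did not overlap on either scale, and 731 had no gene symbol. Over all tested probe sets, as deposited, every Yorkshire array was above every Meishan array for 1195 (14.0%) and below every one for 4370 (51.2%). With the brightest probe set for each gene, 209 genes were higher in Yorkshire (5.14%) and 320 were lower (7.87%). Large fitted differences were mostly higher in Yorkshire, where 122 probe sets were called with at least 8-fold, against 29 lower ones. Values under 100 were left unchanged here, so that these folds are fitted values and no bounds. Calls in both directions were more frequent among dim probe sets: 13.5% of those with a mean under 7 were called higher and 27.4% lower, against 3.59% and 0.448% of those over 12. A low mean also picks probe sets that passed the minimum in 1 breed only. The median difference as deposited was -0.85 for means under 7 and -0.11 over 12.

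The list of antiviral interferon response genes had the largest share of lower calls among the lists with at least 5 tested genes. Of 34 listed genes 16 were tested, and 11 were called lower in Yorkshire and none higher, against 7.87% of all genes called lower. The 11 were the transcription factors STAT2 and IRF7, the ubiquitin-like modifier ISG15 with its protease USP18, the RNA sensor DDX58, and the antiviral effectors OAS1, RSAD2, MX1, IFIT1, IFIT2 and IFIT3. The summed intensity of the 21 listed genes on the array, tested or not, was 3122 to 3708 in Yorkshire arrays, against 18738 to 21124 in Meishan arrays. The median centred difference of the 16 genes was -2.17 (-1.15 with values under 100 set to 100), while the median over all genes tested was -0.01.

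OAS1, which makes the oligoadenylates that switch on RNase L, read 5.44, 4.82 and 6.53 in Yorkshire arrays, against 11.12, 11.29 and 11.30 in Meishan arrays. All Yorkshire arrays were under an intensity of 100 and all Meishan arrays far above it, so that OAS1 was at least 18.5-fold lower in Yorkshire (adjusted p = 4.94e-05). ISG15, which is attached to other proteins in the interferon response, read 8.92, 7.84 and 8.98 in Yorkshire arrays, against 12.75, 12.93 and 13.01 in Meishan arrays. The groups did not overlap, and the centred difference was -3.93 ± 0.27 (SE, adjusted p = 4.24e-05).

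RSAD2, or viperin, which blocks the replication of viruses, had 6.32, 5.61 and 7.42 in Yorkshire arrays, against 9.73, 9.78 and 9.68 in Meishan arrays. Its Yorkshire arrays spread more widely than the Meishan arrays, only 1 of them above 100, and all lay below them, with a fitted centred difference of -2.89 ± 0.39 (adjusted p = 0.00103). IFIT3, a binding partner of IFIT1 on viral RNA, was at 6.88, 7.18 and 6.64 in Yorkshire arrays, against 9.66, 9.80 and 9.67 in Meishan arrays. The Yorkshire arrays were all near an intensity of 100 and below the Meishan arrays, and the difference was -2.42 ± 0.20 (adjusted p = 0.000114). MX1, a GTPase that traps viral nucleocapsids, gave 8.70, 8.89 and 9.25 in Yorkshire arrays, against 11.36, 11.56 and 11.63 in Meishan arrays. It was above 100 in every Yorkshire array and lower there than in every Meishan array, with a difference of -2.18 ± 0.20 (adjusted p = 0.000187). IFIT1, which binds viral RNA caps, had 6.99, 8.17 and 7.89 in Yorkshire arrays, against 10.24, 10.30 and 10.15 in Meishan arrays, with no overlap and a difference of -2.16 ± 0.34 (adjusted p = 0.00214), and its second probe set was called lower as well.

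DDX58 and USP18 had fitted differences of -2.44 ± 0.47 and -2.33 ± 0.39, with only 1 Yorkshire array above 100 for each, and IFIT2, STAT2 and IRF7 had all 3 Yorkshire arrays under 100, with bounds of at least 1.49-fold, 1.52-fold and 1.44-fold (adjusted p = 0.000523, 0.000742 and 0.000186). These adjusted p-values belong to the fitted differences and not to the bounds, which were all under 2-fold. The 5 tested members without a call were IRF1, IRF2, IFI44L, GBP1 and the kinase EIF2AK2. IFI44L had a centred difference of -0.77 ± 0.18 (adjusted p = 0.0119), under the 2-fold limit, and GBP1, a GTPase best known for its response to interferon gamma, had 0.55 ± 0.26 (adjusted p = 0.127).

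The interferon genes had smaller median differences on the earlier days. Over the 16 genes, the median centred difference was -0.01 at GD15 and -0.14 at GD26, and of the 11 genes called lower at GD50 none was called lower on both scales at GD15 and 1 at GD26. After centring alone, OAS1 (-1.11, adjusted p = 0.04999) and USP18 (-1.18, adjusted p = 0.0486) also passed at GD15. ISG15 read 10.83, 11.21 and 10.88 in Yorkshire GD26 arrays, against 10.77, 11.25 and 11.76 in Meishan GD26 arrays. Between GD26 and GD50 the mean of ISG15 changed by -2.40 in Yorkshire and by 1.64 in Meishan as deposited. OAS1 behaved alike, with 8.61, 8.62 and 8.69 in Yorkshire GD26 arrays, against 8.83, 9.51 and 9.74 in Meishan GD26 arrays. In the fit over all 18 arrays, the GD50 difference was different from that of GD26 for 10 of the 11 genes on both scales, and from that of GD15 for 9 of the 11. Of all 320 genes called lower at GD50, 38 differed from GD26 and 227 from GD15; like the 11, they were chosen for their GD50 difference. USP18 passed for neither day, with a GD50 minus GD26 change of -1.06 (adjusted p = 0.254), and MX1 did not pass for GD15 (-1.15, adjusted p = 0.0660). The Yorkshire GD26 arrays had the actin values of the Yorkshire GD50 arrays and 2 of them, arrays 2 and 3, their hybridization control values. With only Yorkshire GD26 array 1 in that group, an alternative chosen after seeing the data in which that array is assumed to vary like the other groups, 5 of the 11 genes passed, and the fitted differences between the days were -0.65 to -4.67.

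**Figure D2:**
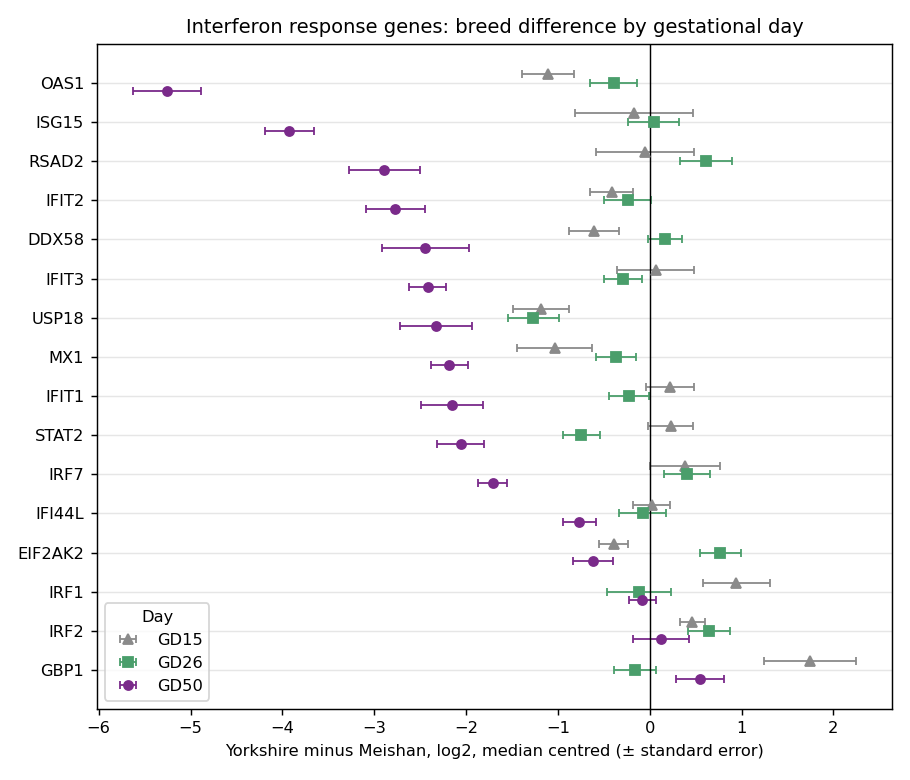
Centred Yorkshire minus Meishan difference (log2, horizontal axis) of the 16 interferon response genes tested, at GD15, GD26 and GD50, with the standard error of each limma fit (3 arrays a group). At GD50 the 11 called genes lie between -5.26 and -1.71, and at GD26 the same genes lie between -1.27 and 0.61; OAS1, IFIT2, STAT2 and IRF7 have all Yorkshire GD50 arrays under 100, so that their GD50 points are fitted values and no bounds.

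Among the genes higher in Yorkshire, CD74, IGF2, SOD3 and IGFBP5 had the largest differences when values under 100 were set to 100. IGF2, the fetal growth factor of the insulin-like family, read 13.59, 13.05 and 13.78 in Yorkshire arrays, against 9.50, 9.23 and 9.07 in Meishan arrays. The groups did not overlap, with a centred difference of 4.59 ± 0.20 (SE, adjusted p = 6.27e-06). Of its 6 probe sets tested, 5 were called higher, with differences of 3.48 to 4.59, and 1 was not (0.32). IGF2 was under 100 in all 6 arrays of GD15. In Yorkshire it had 13.06, 12.30 and 13.15 at GD26, against 6.10, 5.08 and 4.85 in Meishan, all of the Meishan values under 100, and the fitted GD50 minus GD26 change of the breed difference was -3.23 (adjusted p = 0.000229).

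IGFBP5, a binding protein that holds insulin-like growth factors in the matrix, read 10.18, 11.15 and 10.26 in Yorkshire arrays, against 5.002, 3.73 and 4.09 in Meishan arrays. No Meishan array reached 100, and IGFBP5 was at least 14.8-fold higher in Yorkshire (adjusted p = 2.5e-05). Of the 4 tested genes of the insulin-like growth factor system 2 were called, both higher, against 5.14% of all genes. A further 8 members on the array were under 100 on all 6 arrays. TFRC, the transferrin receptor that takes iron into cells, had 10.35, 9.98 and 10.19 in Yorkshire arrays, against 2.35, 2.18 and 3.48 in Meishan arrays. The Meishan arrays were at the bottom of the scale and TFRC was at least 11.5-fold higher in Yorkshire (adjusted p = 4.69e-06). It lay at 9.93, 8.64 and 9.69 in Yorkshire GD26 arrays, and between 2.18 and 2.53 in the Meishan GD26 arrays and all GD15 arrays. Of 8 tested iron handling genes, TFRC was the 1 called, against 5.14% of all genes called higher.

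CD74, the invariant chain that guides MHC class II molecules, had 11.04, 11.16 and 11.03 in Yorkshire arrays, against 6.80, 6.18 and 6.90 in Meishan arrays. Yorkshire arrays lay close together and above every Meishan array, by 4.83 ± 0.22 (adjusted p = 7.2e-06). Of 16 genes of the swine MHC and antigen presentation tested, CD74 was the only one higher, and SLA-DMA, which helps to load peptides on class II molecules, was lower, with 9.58, 9.30 and 9.87 in Yorkshire arrays, against 11.09, 11.46 and 10.97 in Meishan arrays. That difference was -1.20 ± 0.20 (adjusted p = 0.0029), and a second probe set of SLA-DMA, at -0.20, was not called. Of all genes 5.14% were called higher and 7.87% lower, near the shares of this list.

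SOD3, the extracellular superoxide dismutase, had 13.34, 13.33 and 13.86 in Yorkshire arrays, against 9.27, 9.14 and 9.80 in Meishan arrays. All Yorkshire arrays were higher than all Meishan arrays, by 4.49 ± 0.24 (adjusted p = 1.47e-05). SPINT1, a membrane inhibitor of the serine proteases matriptase and hepatocyte growth factor activator, read 10.33, 10.44 and 10.07 in Yorkshire arrays, against 6.59, 6.51 and 6.32 in Meishan arrays. Its Meishan arrays were all just under 100, so that SPINT1 was at least 12.4-fold higher (adjusted p = 5.59e-06). PRSS8, or prostasin, a serine protease of the same epithelial cascade, had 10.08, 9.87 and 9.50 in Yorkshire arrays, against 6.57, 7.31 and 6.82 in Meishan arrays, with no overlap and a difference of 3.31 ± 0.24 (adjusted p = 5.38e-05).

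TIMP3, a matrix-bound inhibitor of metalloproteinases, was at 10.58, 9.96 and 10.17 in Yorkshire arrays, against 7.03, 6.93 and 7.09 in Meishan arrays. The Meishan arrays were close to 100 and the difference was 3.61 ± 0.16 (adjusted p = 6.22e-06), and a second TIMP3 probe set was called higher as well. APOD, a lipid carrier of the lipocalin family, read 14.003, 13.94 and 14.13 in Yorkshire arrays, against 11.10, 11.16 and 11.50 in Meishan arrays. It was bright in every array and higher in all Yorkshire arrays, by 3.16 ± 0.17 (adjusted p = 1.47e-05). The 3 remaining genes of the 12 largest were LRRFIP1, a nucleic acid binding protein (4.30 ± 0.28), the zinc finger gene ZKSCAN5 (3.29 ± 0.18) and FKBP1A, a peptidyl-prolyl isomerase (3.21 ± 0.22), with no overlap between the groups.

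**Figure D3:**
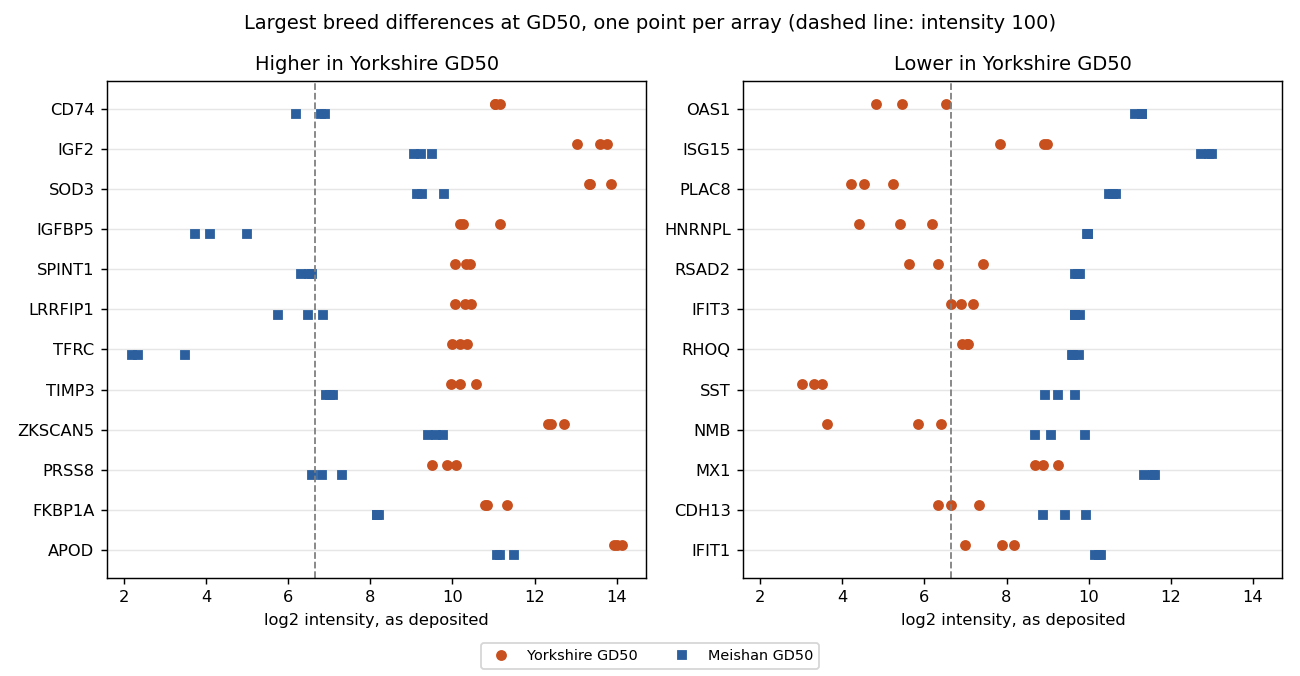
Deposited log2 intensities (horizontal axis) of the 12 genes with the largest higher and the 12 with the largest lower difference at GD50, with 1 point for each of the 3 Yorkshire and 3 Meishan arrays; the dashed line is an intensity of 100, and genes were ranked with values under it set to it. The groups do not overlap for any of the 24 genes, by the rule that chose them.

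Outside the interferon response, the lower genes included peptides and a gene of the trophoblast list. PLAC8, a cysteine-rich protein known from placenta and immune cells, read 4.20, 5.24 and 4.52 in Yorkshire arrays, against 10.66, 10.58 and 10.51 in Meishan arrays. Yorkshire arrays were all under 100 and Meishan arrays far above it, which gave at least 11.7-fold lower in Yorkshire (adjusted p = 1.69e-05). At GD15 PLAC8 read 6.68, 7.04 and 7.84 in Yorkshire arrays, against 9.91, 9.56 and 8.15 in Meishan arrays. PAG6 lay near the bottom of the scale in all arrays of that day. Other members of the trophoblast list had other values at GD50: TEAD4 and IGF2 were called higher, and PAG6, PPAG3 and PLET1 had centred differences of -0.39, -0.99 and 0.16 without a call. SST, the hormone somatostatin, had 3.50, 3.01 and 3.30 in Yorkshire arrays, against 8.95, 9.26 and 9.67 in Meishan arrays. It was under 100 in every Yorkshire array and at least 4.78-fold lower (adjusted p = 3.01e-06).

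NMB, the bombesin-like peptide neuromedin B, read 3.61, 5.85 and 6.39 in Yorkshire arrays, against 8.70, 9.07 and 9.90 in Meishan arrays. The Yorkshire arrays spread more widely than the Meishan arrays, all under 100, and NMB was at least 4.57-fold lower (adjusted p = 0.00671). HNRNPL, a regulator of splicing, had 4.41, 5.40 and 6.18 in Yorkshire arrays, against 9.997, 9.98 and 9.97 in Meishan arrays, which was at least 7.73-fold lower (adjusted p = 0.00025). RHOQ, a small GTPase of insulin-driven glucose uptake, and CDH13, a cadherin without a cytoplasmic tail, were lower in Yorkshire, with differences of -2.27 ± 0.15 and -2.27 ± 0.32 and no overlap. Among 14 tested secretory proteins of the uterine histotroph 1 was called, and it was lower. Of all genes 7.87% were called lower, near the share of this list. The called gene was SERPINA1, the protease inhibitor alpha-1-antitrypsin. It had 3.09, 2.19 and 3.04 in Yorkshire arrays, against 8.72, 9.03 and 8.74 in Meishan arrays, and was at least 3.47-fold lower in Yorkshire (adjusted p = 4.4e-06). Of the other plasma proteins tested, HP, or haptoglobin, was higher, at 13.75, 13.87 and 14.31 in Yorkshire arrays, against 12.96, 12.74 and 13.23 in Meishan arrays (1.39 ± 0.22, adjusted p = 0.00216), and AFP and ALB were under 100 on all 6 arrays.

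Of 11 metalloproteinase genes and inhibitors tested, 4 were called higher and none lower, against 5.14% and 7.87% of all genes. Besides TIMP3 these were the gelatinase MMP2 (1.69 ± 0.28) and the membrane sheddases ADAM9 (1.58 ± 0.18) and ADAM10. ADAM10, which cleaves Notch and cadherins, had 7.14, 7.02 and 7.22 in Yorkshire arrays, against 2.26, 2.26 and 2.26 in Meishan arrays. All Meishan arrays sat at the bottom of the scale and the Yorkshire arrays were little over 100, so that ADAM10 was at least 1.40-fold higher (adjusted p of the fitted difference = 1.24e-06). With values under 100 set to 100 ADAM10 lost its call. MMP14, TIMP1 and TIMP2 had centred differences of 0.63, 0.40 and -0.26 without a call. The summed deposited intensity of the 18 listed genes on the array went the other way from the calls. It was 37900 to 44421 in Yorkshire arrays, against 49046 to 56585 in Meishan arrays. Among 16 matrix proteins COL1A2, a chain of collagen I, and LOX, the enzyme that crosslinks collagen, were higher and POSTN, or periostin, was lower. Of all genes 5.14% were higher and 7.87% lower. COL1A2 had 8.54, 7.75 and 8.88 in Yorkshire arrays, against 5.80, 4.49 and 4.49 in Meishan arrays, and no Meishan array reached 100 (at least 3.35-fold, adjusted p = 0.000295). POSTN read 3.79, 3.33 and 2.88 in Yorkshire arrays, against 7.68, 7.78 and 6.75 in Meishan arrays, and no Yorkshire array reached 100 (at least 1.29-fold lower, adjusted p of the fitted difference = 0.000138). With values under 100 set to 100 POSTN lost its call.

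In the TGF-beta and BMP list 4 of 14 tested genes were lower in Yorkshire and 1 was higher, against 7.87% and 5.14% of all genes. BMP4 and BMP7 lost their call when values under 100 were set to 100. BMP4, a bone morphogenetic protein that patterns mesenchyme, read 5.10, 5.84 and 4.80 in Yorkshire arrays, against 7.59, 7.28 and 8.10 in Meishan arrays, with all Yorkshire arrays under 100 (at least 1.54-fold lower, adjusted p = 0.00298). BMP7, a related ligand of the reproductive tract, had 4.41, 6.002 and 4.06 in Yorkshire arrays, against 7.51, 7.13 and 7.58 in Meishan arrays, at least 1.30-fold lower (adjusted p = 0.0113). The receptors were lower too: ACVR1B, an activin receptor, with a difference of -1.50 ± 0.23 (adjusted p = 0.00199), and BMPR1B, a receptor of BMP ligands, with all Yorkshire arrays under 100. TGFB1, the ligand that drives matrix deposition, was the 1 higher member, at 7.69, 7.89 and 7.23 in Yorkshire arrays, against 6.20, 6.10 and 6.25 in Meishan arrays. Its Meishan arrays were all under 100 (at least 1.95-fold higher, adjusted p = 0.000563).

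Of 8 endothelial markers tested 3 were higher and none lower, against 5.14% and 7.87% of all genes, while PECAM1 had 8.67, 8.79 and 8.53 in Yorkshire arrays, against 9.38, 9.36 and 9.48 in Meishan arrays, and was not called. ENG, or endoglin, a TGF-beta co-receptor of endothelial cells, read 9.72, 9.08 and 9.005 in Yorkshire arrays, against 6.14, 5.98 and 6.41 in Meishan arrays (at least 6.17-fold higher, adjusted p = 2.2e-05). CLDN5, a tight junction claudin of vessels, had 7.58, 7.63 and 8.20 in Yorkshire arrays, against 5.90, 5.71 and 5.52 in Meishan arrays (at least 2.24-fold, adjusted p = 0.00014), and ESAM, an adhesion molecule of endothelial junctions, was at least 1.17-fold higher and lost its call when values under 100 were set to 100. The summed intensity of the list overlapped between the breeds, with 2568 to 3147 in Yorkshire arrays and 2488 to 3177 in Meishan arrays. Of 6 tested markers of macrophages and neutrophils 2 were higher, against 5.14% of all genes: C1QA, a chain of complement C1q, by 3.16 ± 0.24 and S100A9, a subunit of calprotectin, by 1.83 ± 0.23. AIF1, a calcium-binding protein of macrophages, read 9.90, 10.18 and 10.21 in Yorkshire arrays, against 11.54, 11.55 and 11.08 in Meishan arrays, and was called lower as deposited but not after centring (-0.90). The summed intensity of the 11 markers of this list on the array overlapped, with 6251 to 8052 in Yorkshire arrays and 7038 to 7687 in Meishan arrays. C1QC, another chain of the same complex, was at 11.47, 11.72 and 11.56 in Yorkshire arrays, against 11.69, 11.45 and 11.80 in Meishan arrays. Of 15 markers of lymphocytes and cytotoxic cells on the array 1 was tested, and 13 were under 100 on all 6 arrays.

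Prostaglandin genes moved in both directions. PTGS2, the inducible cyclooxygenase, was at 10.56, 10.93 and 10.84 in Yorkshire arrays, against 9.40, 9.46 and 8.70 in Meishan arrays (1.98 ± 0.25, adjusted p = 0.000864). PTGES, which makes prostaglandin E2 from its product, read 8.52, 8.59 and 9.25 in Yorkshire arrays, against 10.56, 11.37 and 10.61 in Meishan arrays, the opposite direction (-1.67 ± 0.29, adjusted p = 0.00358). PLA2G7, a phospholipase that inactivates platelet-activating factor, was higher by 1.68 ± 0.17. The other 5 of 8 tested genes were not called, and of all genes 5.14% were higher and 7.87% lower. Of 18 genes of steroid hormone synthesis and conversion tested, STAR, which brings cholesterol into mitochondria, and CYP11A1, which makes pregnenolone from it, were the 2 called, both lower, against 7.87% of all genes, so that the share was near that of all genes. STAR had 7.997, 7.45 and 9.21 in Yorkshire arrays, against 10.09, 10.31 and 9.46 in Meishan arrays (-1.35, adjusted p = 0.0374). CYP11A1 read 7.84, 7.04 and 8.68 in Yorkshire arrays, against 9.80, 10.33 and 9.68 in Meishan arrays (-1.70 ± 0.38, adjusted p = 0.00997). The groups did not overlap for either gene as deposited, but STAR overlapped after centring, and STAR was under 100 in all 6 arrays of GD15.

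The other lists held few calls. LIF, a cytokine of uterine receptivity, had 8.45, 8.22 and 9.17 in Yorkshire arrays, against 5.06, 5.24 and 5.50 in Meishan arrays, with every Meishan array under 100 (at least 3.92-fold higher, adjusted p = 4.34e-05). JUP, or plakoglobin, which links cadherins to the cytoskeleton, was at least 3.96-fold higher (adjusted p = 4.24e-05), and the integrin chain ITGB3 was lower, with a difference of -1.54 ± 0.26. AQP3, a channel for water and glycerol, read 6.79, 7.13 and 7.56 in Yorkshire arrays, against 9.61, 9.53 and 9.65 in Meishan arrays (-2.05 ± 0.23, adjusted p = 0.000455), and ATP2B1, a calcium pump of the plasma membrane, was higher by 1.59 ± 0.16. JUN, a subunit of AP-1, was higher by 2.55 ± 0.18. The glutathione transferases GSTM3 and GSTA1 were the 2 higher of 15 glutathione enzymes, against 5.14% of all genes.

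SLC7A1, a carrier of arginine and lysine, SCD, a fatty acid desaturase, and MTHFD2, a mitochondrial folate enzyme, were the only calls in their lists. They were lower, with differences of -1.04 ± 0.21, -1.21 ± 0.25 and -1.03 ± 0.14. Their lists had 12, 13 and 9 tested genes, and 7.87% of all genes were lower, so that the shares were near that of all genes. SLC7A1 lost its call under several alternatives given below. No member was called on both scales among 56 ribosomal protein genes and 36 genes of the respiratory chain. The same held for 14 cathepsins and lysosomal proteins, 10 glycolysis genes and 7 steroid and prolactin receptors. Of all genes 5.14% were higher and 7.87% lower, so that lists of 14, 10 and 7 genes are too short to differ from these shares. As deposited alone 3 receptors, 1 respiratory chain gene and 1 member of the cathepsin list were called lower. After centring alone 1 receptor and 1 ribosomal protein gene were called higher. The ribosomal protein genes had a median centred difference of 0.29 and a median of -0.10 as deposited, so that their direction depended on the scale.

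**Figure D4:**
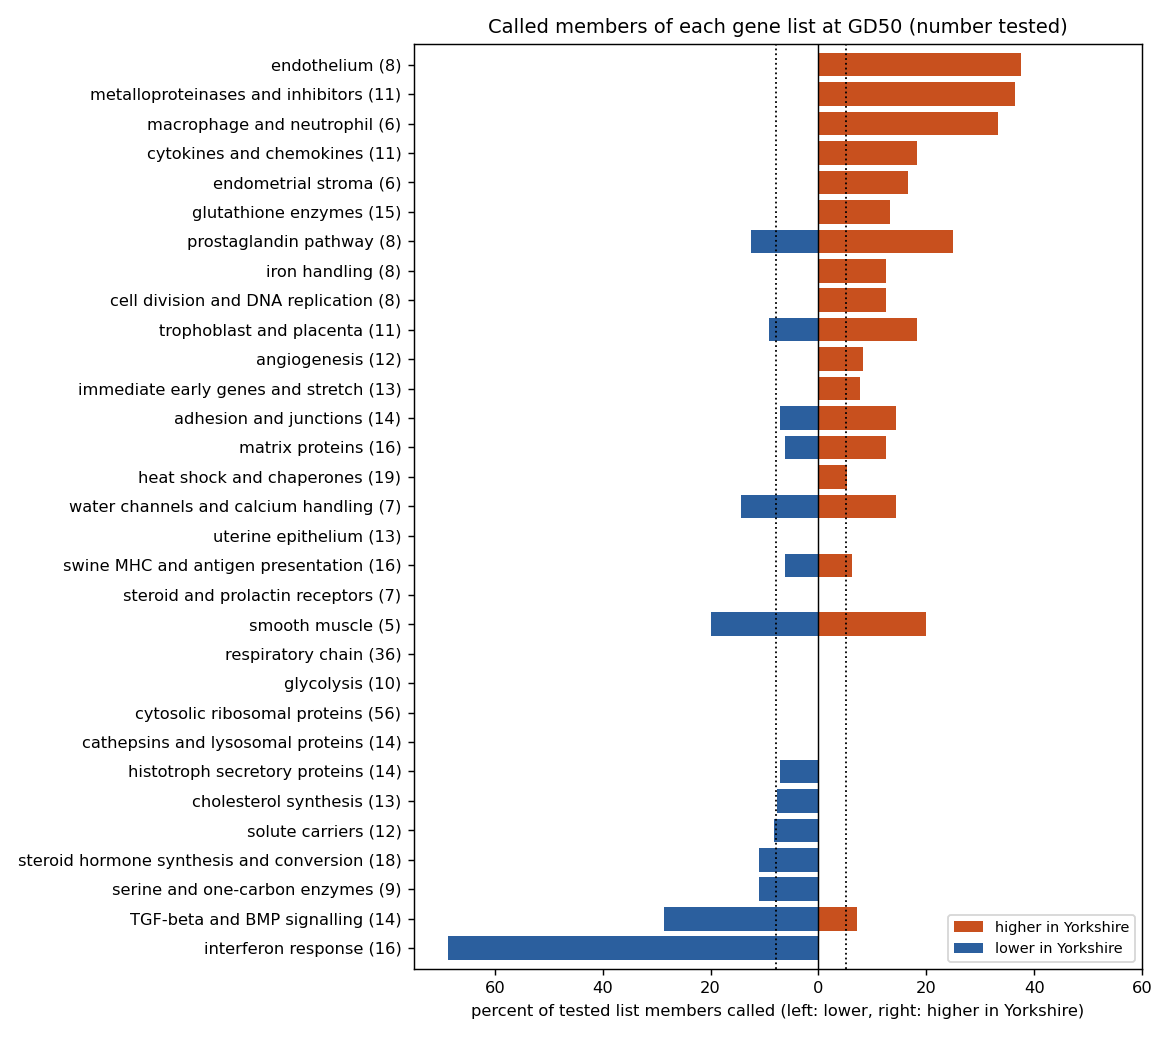
Percent of the tested members of each gene list called higher (to the right) and lower (to the left) in Yorkshire GD50 arrays, for lists with at least 5 tested genes, with the number tested in brackets; the dotted lines are the shares of all genes, 5.14% higher and 7.87% lower. The interferon response list, with 11 of 16 members lower, has the longest bar.

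Genes that the study followed by RT-PCR were also looked up, 11 of them on the array. S100A9 had 9.89, 10.15 and 9.49 in Yorkshire arrays, against 8.55, 8.48 and 8.17 in Meishan arrays, and LIF and S100A9 were called higher, while BMP4 and ITGB3 were called lower. MSX1, a homeobox gene of the luminal epithelium, read 9.01, 8.64 and 8.79 in Yorkshire arrays, against 8.13, 7.88 and 7.97 in Meishan arrays, with a centred difference of 1.21 ± 0.14 (adjusted p = 0.000563) that was called after centring and stayed under 2-fold as deposited (0.82). STC1, a calcium-regulating glycoprotein, HSD17B2, which inactivates estradiol, and the metalloproteinase MMP7 had differences of 0.04 ± 0.32, -0.33 ± 0.18 and -0.60 ± 0.22 without a call. The brightest probe set of THBS1, an inhibitor of vessel growth, was not called (0.21 ± 0.19), but a second one was called higher (2.81). HMOX1, or heme oxygenase, and PRLR, the prolactin receptor, were above 100 in too few arrays to be tested. Of 14 other tested genes that the study names 6 were higher and none lower, against 5.14% and 7.87% of all genes: SPINT1, BSG, CFL1, TEAD4, EPAS1 and FKBP8. The study named these 6 for their high Yorkshire expression at GD26 and GD50 on the same arrays. The count is therefore not independent of that choice, and nothing is concluded from it. EPAS1, a hypoxia-inducible factor, had 12.15, 11.19 and 11.54 in Yorkshire arrays, against 10.80, 10.61 and 10.48 in Meishan arrays, with no overlap (1.39 ± 0.21, adjusted p = 0.00193).

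The GD50 calls were then followed back in time with the arrays of GD15 and GD26. Of the 606 probe sets higher at GD50, 391 (64.5%) were called higher at GD26 and 50 (8.25%) at GD15, where 6.54% and 2.04% of all tested probe sets were called higher. Of the 896 lower ones, 390 (43.5%) were called lower at GD26 and 46 (5.13%) at GD15, where 8.79% and 2.64% were. No array is shared between the days. The Yorkshire arrays of GD26 had actin differences like those of GD50, and arrays 2 and 3 of them also had hybridization controls like those of GD50, while the Yorkshire arrays of GD15 had neither; the part of these values in the shared calls was not tested. The GD50 difference was different from that of GD15 for 886 higher (10.4%) and 1258 lower (14.7%) probe sets, and from that of GD26 for 206 higher (2.41%) and 217 lower (2.54%). Correlations between arrays of the 2 breeds were 0.942 to 0.960 at GD15, 0.819 to 0.882 at GD26 and 0.807 to 0.832 at GD50, while arrays of 1 GD50 group correlated at 0.951 to 0.986. The correlations and the called shares of every day used the probe sets that passed the filter on the GD50 arrays. That filter also keeps probe sets that passed it at GD50 in 1 breed only, so that the days are not on an equal footing. The effect of this choice was not tested.

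**Figure D5:**
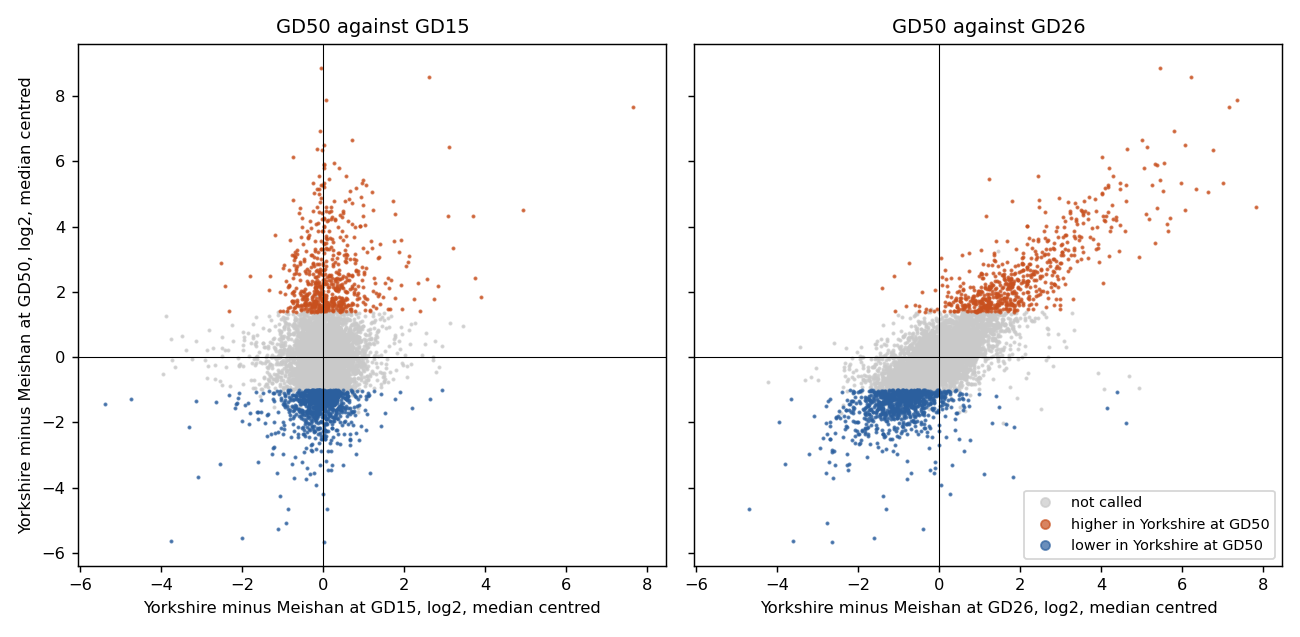
Centred Yorkshire minus Meishan difference (log2) of the 8533 probe sets at GD50 (vertical axis) against that at GD15 (left) and at GD26 (right), with probe sets called higher or lower at GD50 in colour. The higher calls had a median of 2.22 at GD50, 1.79 at GD26 and 0.06 at GD15, and the lower calls -1.39, -0.94 and -0.08.

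Genes called in the same direction on all 3 days, chosen after their values were seen, were 14 higher and 9 lower ones. SOD3, described above, had differences of 1.24 at GD15, 6.06 at GD26 and 4.49 at GD50. CNDP1, a dipeptidase that splits carnosine, read 9.88, 9.52 and 9.26 in Yorkshire arrays, against 6.95, 7.25 and 6.87 in Meishan arrays, and had differences of 2.10, 3.94 and 2.92 on these days. ABCA1, the cholesterol exporter, had 8.45, 8.20 and 8.48 in Yorkshire arrays, against 6.76, 5.78 and 6.47 in Meishan arrays, and its difference was 3.75 at GD15, 3.07 at GD26 and 2.43 at GD50. FMO1, a monooxygenase of drug metabolism, the kinase MAP3K3, ALDH7A1, an aldehyde dehydrogenase, and JUN were further members. The lower genes included SST, PLAC8, HNRNPL, PTTG1, or securin, and ACOX3, an enzyme of peroxisomal fatty acid oxidation. ACOX3 had 6.31, 6.23 and 6.30 in Yorkshire arrays, against 7.94, 8.002 and 7.87 in Meishan arrays, with differences of -2.10, -1.02 and -1.27. SST was at 6.64, 5.67 and 6.33 in Yorkshire GD15 arrays, against 10.11, 10.10 and 9.71 in Meishan GD15 arrays, so that all 3 Yorkshire arrays were lower on that day as well.

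Probe sets of the same gene did not always move together. Of 674 genes with several tested probe sets 247 had a call, and in 20 of these all probe sets were called in the same direction. In 133 the other probe sets had the same sign, in 86 the sign differed, and 8 genes had calls in opposite directions: AMY2, ARPC4, CDK2, HSP90AA1, MARK3, PICALM, RPL23 and SON. RPL23, a ribosomal protein, had a probe set with 11.60, 12.30 and 11.56 in Yorkshire arrays, against 7.54, 7.59 and 7.55 in Meishan arrays, a second probe set that was called lower (-1.89 after centring), and another without a call that differed by 0.23. ADAM9, ACTG2 and SLA-DMA also had a probe set without a call. CDK2, the 1 gene called higher of 8 tested cell division genes, against 5.14% of all genes, had a second probe set called lower (-1.44).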

How the data were processed

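The authors hybridized 18 pools of endometrial RNA to the Affymetrix porcine array and preprocessed the scans with the affy and GCRMA packages; the processing notes also name RMA, and versions are not given in the sources used here. The deposited values are log2 intensities and were used unchanged, or after subtraction of each array's median over the tested probe sets. Control probe sets were left out. Probe sets above an intensity of 100 in at least 3 of the 6 GD50 arrays entered the lmFit and eBayes steps of limma (version 3.58.1, under R 4.3.3) as Yorkshire minus Meishan, and p-values were adjusted by Benjamini-Hochberg over all 8533. Differences between days came from a fit of all 18 arrays. The median centring made the share of lower calls smaller, as given above. Genes were named through the platform annotation, with the brightest probe set standing for a gene, and probe sets with several symbols or none were left unnamed.

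The genes described were the 12 largest differences each way among called genes whose groups did not overlap, ranked with values under 100 set to 100, up to 4 called members of each list, and the genes followed by RT-PCR; exceptions are named as chosen after their values were seen, as are the marker and probe set examples given without a call. The comparison and the lists were chosen with earlier results of these data known. Where all arrays of the dimmer breed were under 100, a fold is a lower bound, the mean of the brighter breed against 100, and the smaller of the centred and deposited bounds is given. The adjusted p beside such a bound is that of the fitted centred difference and not of the bound. The procedure was tested on simulated data for the centred GD50 comparison over 8533 probe sets: of 100 planted changes each, 84% were recovered at 1.5 log2 units and 99% at 3, with 6 false calls. The simulation had independent noise, the same shift for all probe sets and 200 changes split equally between the directions. Its false calls therefore give no rate for the real comparison. The labels number the arrays of each group, but same-numbered arrays deviated together with correlations of only 0.02, 0.01 and -0.02, so that the numbers were not taken as pairs. Exact permutation of 3 against 3 arrays cannot reach the threshold, and none was used. The number of arrays limits the precision. Alternatives were other filters, fold limits, normalizations, centrings and adjustments, a floor at 100, a replicate block, 1 fit over 18 arrays and leaving out each array. Figures were drawn with matplotlib 3.10.9 in Python 3.11.15.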

Additional observations from a re-analysis of the deposited data

Results flagged for a closer look

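The breed difference at GD50 was different from that at GD26, by a limma contrast over the 18 arrays, for 206 probe sets in the higher and 217 in the lower direction, and from that at GD15 for 886 and 1258. Among the genes described, the GD50 minus GD26 change was negative for the interferon genes OAS1 (-4.86), ISG15 (-3.97), RSAD2 (-3.50), IFIT3 (-2.13), IFIT1 (-1.93) and MX1 (-1.81). It was also negative for the matrix protein POSTN (-5.51), for PLAC8 (-3.94), NMB (-3.43), IGF2 (-3.23), HNRNPL (-2.89), SST (-2.01), CDH13 (-1.82), AQP3 (-1.68) and PTGES (-1.65). It was positive for the claudin CLDN5 (3.60), for STC1 (2.01), PLA2G7 (1.53), GSTM3 (1.53), TGFB1 (1.39), ADAM10 (1.10) and ATP2B1 (0.96). These are fitted values on the log2 scale and no bounds where arrays were under 100.

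The bacterial hybridization controls, which carry no pig RNA, averaged 13.2 in the Yorkshire GD50 arrays and 11.3 in the Meishan GD50 arrays, and their part in the differences was not tested.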

How the results depend on the processing

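Of the calls on both scales (606 higher, 896 lower), 1 probe set per gene gave 209 and 320, Bonferroni adjustment 162 and 39, and no fold limit 971 and 1818. Without a filter 1029 were higher. The lower count was 1644 with a 1.5-fold limit, 592 with a minimum of 200, 1547 with centring on ribosomal protein probe sets, 536 with cyclic loess and 411 with a floor at 100. Centred values gave 350 higher with 1 probe set per gene, 1507 with a 1.5-fold limit, 575 with a minimum of 200, 260 with Bonferroni, 2449 without a filter and 1744 without a fold limit, and 44 lower with Bonferroni; with 1 probe set per gene, the fold limits, the minimum of 200, ribosomal centring, loess and the floor, the lower counts equalled those on both scales. Deposited values gave 722 lower with 1 probe set per gene, 3199 with a 1.5-fold limit, 1164 with a minimum of 200, 73 with Bonferroni and 3627 without a fold limit; the higher counts listed for both scales were the same as deposited. Changes between days numbered 1337 (GD15) and 350 (GD26) higher with quantile normalization and 2613 lower (GD15) as deposited. Calls shared with other days were 82 lower at GD15 and 951 lower at GD26 as deposited, and 597 higher at GD26 with centring alone. The cause was not tested.

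Leaving out each array gave 581 to 650 higher and 727 to 997 lower calls on both scales, 862 to 920 and 727 to 997 centred, and 581 to 650 and 1610 to 2012 as deposited. The replicate block gave 605 and 903 on both scales, 917 and 903 centred and 605 and 1848 as deposited, and changed no call of the 71 tested genes named by rule, none of which reversed under any alternative. With Bonferroni, 39 of the 71 tested genes named by rule no longer passed. ACTG2 lost its call without Meishan array 3 or Yorkshire array 1, and SLC7A1 without Yorkshire array 2. Cyclic loess ended the calls of ACTG2, BMP7, MTHFD2 and SLC7A1, quantile normalization those of ACTG2 and SLC7A1, and ribosomal centring the centred one of MSX1. A floor at 100 ended the calls of ADAM10, BMP4, BMP7, ESAM, GSTA1, POSTN and SLC7A1, and the mean of all probe sets, chosen after seeing the data, ended those of ACTG2, CDK2 and SLA-DMA. The interferon count of 11 became 8 with a minimum of 200 or a floor at 100, and 3 with Bonferroni.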

Other observations

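Further genes, chosen after their values were seen, had a breed difference at GD50 that was not that of GD26. LBP, the plasma protein that binds bacterial lipopolysaccharide, was at 5.99, 3.36 and 4.43 in Yorkshire GD50 arrays, against 9.10, 8.98 and 9.45 in Meishan GD50 arrays, while all 6 arrays of GD26 lay between 2.19 and 2.35. XAF1, an interferon-induced gene of cell death that is in no list here, was at 3.55, 4.38 and 3.50 in Yorkshire GD50 arrays, against 7.65, 7.79 and 8.32 in Meishan GD50 arrays. ANPEP, an aminopeptidase of cell surfaces, had 4.44, 3.40 and 3.67 in Yorkshire GD50 arrays, against 7.50, 8.26 and 7.63 in Meishan GD50 arrays. For all 3 genes no Yorkshire GD50 array reached 100.

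TM4SF5, a tetraspan membrane protein, changed direction between the days. At GD26 it read 9.55, 8.34 and 9.38 in Yorkshire arrays, against 6.74, 5.54 and 3.55 in Meishan arrays, and at GD50 it read 8.67, 7.86 and 8.41 in Yorkshire arrays, against 10.32, 10.66 and 9.82 in Meishan arrays. The GD50 minus GD26 change was -5.70 (limma, adjusted p = 0.000625).

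Several genes were higher in Yorkshire at GD50. CHPT1, an enzyme of phosphatidylcholine synthesis, had 11.06, 11.29 and 11.34 in Yorkshire GD50 arrays, against 9.22, 9.29 and 9.20 in Meishan GD50 arrays, with 9.96, 10.02 and 9.94 in Yorkshire GD26 arrays, against 10.19, 9.99 and 10.25 in Meishan GD26 arrays. At GD15 CHPT1 was also higher in Yorkshire, by 2.57 after centring (limma, adjusted p = 0.000313), as at GD50 (2.38). CLU, or clusterin, a secreted chaperone, read 14.19, 14.03 and 14.27 in Yorkshire GD50 arrays, against 12.98, 12.75 and 13.16 in Meishan GD50 arrays. HPN, or hepsin, a membrane serine protease, was higher by 2.41 after centring, and C4BPA, a complement inhibitor, by 2.05.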
